A study of Mus musculus with 26 samples.

Results

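The 37 genes described here encode heat shock proteins, their cochaperones, the cytosolic chaperonin and the heat shock transcription factors of the mouse. They were taken as a named list from the 55416 genes of the count tables, and all 37 were found by symbol. The study sequenced polyA RNA from C57BL/6 mice whose lungs carried metastases of B16F10, a mouse melanoma line, and set animals given propranolol, a blocker of beta-adrenergic receptors, against animals given no treatment. Whole lung was sequenced in 5 propranolol and 5 untreated libraries, material labelled lung monocytes in 4 propranolol and 4 untreated libraries, and material labelled lung CD4 T cells in 4 propranolol and 4 untreated libraries. The labels give no age, dose, duration or sorting scheme for these groups, and they name a lung metastasis as the source of the first 2 materials only. They do not say whether each library came from a separate animal, so the spread between libraries may be technical.

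Heat shock proteins hold unfolded or partly folded proteins and return them to their native shape. Hsp70 proteins work in a cycle with J proteins, which deliver substrates and start ATP hydrolysis, and with exchange factors such as Hsp110, while Hsp90 proteins finish the folding of kinases and steroid receptors with the help of cochaperones. The ring-shaped chaperonin TRiC folds actin and tubulin in the cytosol. Some of these genes are nearly silent until heat, damaged protein or another stress frees the transcription factor HSF1, which binds repeated heat shock elements in their promoters, while others are expressed at all times. In the account below 15 members are grouped as stress-inducible, 8 as constitutive genes that stress raises further, and 14 as other constitutive genes. This grouping is background knowledge and does not come from these libraries, but it was made with earlier results of these data known.

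The letters that HSF1 recognises were looked for in the promoters. RefSeq start-site windows of 250 bases before to 50 bases after the start, on build GRCm38.p6, were at hand for 30 of the 37 members. Some genes have more than 1 window, 42 in all for the 30 members, and a match in any window of a gene was taken as present. The shares therefore depend in part on how many windows a gene has. The counts were made on build GRCm39, so only sequence is taken from these windows. A heat shock element is made of units of the letters GAA and their reverse complement TTC, set 2 bases apart. The pair GAANNTTC or TTCNNGAA, each the same on both strands, was present in 16 of 30 members (53.3%), against 17% of the 27025 genes in the table. It was present in 10 of 13 stress-inducible members (76.9%), in 3 of 6 constitutive members raised by stress (50%) and in 3 of 11 other constitutive members (27.3%). A run of 3 units, GAANNTTCNNGAA or TTCNNGAANNTTC, which contains both pairs, was present in 5 of 30 members (16.7%), against 0.662% of all genes in the table. The 5 were Hsph1, Chordc1, Dnajb6, Hspe1 and Hspd1, and the last 2, which face away from each other, share 1 element. The cyclic AMP response element TGACGTCA was in 0 of 30 members, against 2.03% of all genes.

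The windows below, 100 bases each and 5′ to 3′ on the gene's own strand, show the elements of members whose counts the results turn on, with every element pair in capitals. Hspa4l has no such pair in its window and is shown for contrast. The Hspa1a window (chr17:34972207-34972306, minus strand) has the same letters as that of Hspa1b.
Hsph1 (chr5:149636288-149636387, minus strand): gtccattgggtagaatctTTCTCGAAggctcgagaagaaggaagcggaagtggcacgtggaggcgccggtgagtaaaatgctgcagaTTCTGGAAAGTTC
Hspa1b (chr17:34959289-34959388, minus strand): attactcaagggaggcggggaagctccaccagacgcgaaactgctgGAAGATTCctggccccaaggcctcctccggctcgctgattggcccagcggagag
Hspb1 (chr5:135887766-135887865, plus strand): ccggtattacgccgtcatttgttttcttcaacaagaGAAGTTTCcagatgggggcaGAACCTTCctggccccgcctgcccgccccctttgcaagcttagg
Chordc1 (chr9:18292195-18292294, plus strand): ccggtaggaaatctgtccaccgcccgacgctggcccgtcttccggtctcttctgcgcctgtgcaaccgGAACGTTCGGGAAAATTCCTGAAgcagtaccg
Hspe1 (chr1:55088018-55088117, plus strand): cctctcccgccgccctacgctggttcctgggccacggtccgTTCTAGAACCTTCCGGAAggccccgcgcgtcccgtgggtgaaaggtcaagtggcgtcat
Dnajb6 (chr5:29735808-29735907, plus strand): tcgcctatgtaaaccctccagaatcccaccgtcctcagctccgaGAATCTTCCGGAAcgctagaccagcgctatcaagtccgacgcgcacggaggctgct
Hspa4l (chr3:40745513-40745612, plus strand): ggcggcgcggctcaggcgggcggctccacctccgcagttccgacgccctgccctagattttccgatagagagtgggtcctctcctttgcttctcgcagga
In Hspa1a and Hspa1b the single pair lies at bases -104 to -97 from the start. In Chordc1 the printed pairs run into one another from base -4 to base 19, and 1 more pair lies further downstream, outside the printed window. A match is a description of letters and says nothing of whether HSF1 was bound.

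Libraries held 29650148 to 43447855 counts in propranolol lungs and 33232082 to 47618634 in untreated lungs. The monocyte libraries held 36277687 to 46407803 counts with propranolol and 36371431 to 48306925 without, and the CD4 T cell libraries 27742422 to 42484125 with propranolol and 17625672 to 35600275 without. Levels below are CPM, counts in every 1000000 counts of a library, scaled by the trimmed mean of M values (TMM) within a material. A gene is called where the edgeR quasi-likelihood test gave a Benjamini-Hochberg adjusted p under 0.05 over all genes tested. The libraries labelled monocytes carried transcripts of other cells: 9 melanocyte markers summed to 5791 to 8457 CPM with propranolol and 4570 to 5503 CPM without, and 5 endothelial markers to 3458 to 3477 CPM and 4539 to 4671 CPM. Alveolar type 2 and club cell markers summed to 5508 to 5946 CPM with propranolol and 5927 to 7684 CPM without. The 6 monocyte markers themselves summed to 4648 to 5604 CPM with propranolol and 3891 to 5019 CPM without. The CD4 T cell libraries held 5 T cell markers at 2015 to 2308 CPM with propranolol and 2098 to 2134 CPM without, while the melanocyte genes Tyrp1, Dct, Tyr, Sox10 and Slc45a2 were at 0 in all 8 of them. In these bulk libraries fewer cells of a type and less RNA per cell cannot be told apart. Reads can be shared between near-identical copies: 66.3% of the 50-base words of Hspa1a and 62.3% of those of Hspa1b occur in other transcripts, mainly each other's, so the split between the pair is uncertain. The same share was 74.8% for Hspa8, 58.5% for Hsp90aa1 and 51.7% for Hspb1, mostly from pseudogenes, and 51.9% for Dnaja4, which overlaps Wdr61.

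The 37 genes were a small part of each transcriptome, smaller with propranolol in lung and monocyte libraries and larger with it in CD4 T cell libraries. Together they took 0.449% to 0.736% of the counts in propranolol lungs, against 0.973% to 1.35% in untreated lungs. In the monocyte libraries they took 0.755% to 0.769% with propranolol and 0.934% to 0.985% without. In the CD4 T cell libraries they took 0.847% to 0.944% with propranolol and 0.823% to 0.833% without. The groups overlap in none of the 3 materials on this unscaled measure.

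The list was selected on the log2 changes with propranolol in the 3 materials, so these changes are given as a description, without p-values. In whole lung 31 of 37 members fell with propranolol, 2 rose (Hspb8 and Dnajb5) and 4 were not called. Of all 18639 genes tested in lung, 35.3% were called lower and 35.5% higher, and the median log2 change was -1.01 over the members and 0.03 over all genes. In the monocyte libraries 21 members fell, 1 rose (Cct2) and 15 were not called, where 16.1% of 18236 genes were called lower and 14.3% higher, and the medians were -0.20 and 0.02. In the CD4 T cell libraries 35 members had enough counts to be tested, of which 25 rose, 2 fell (Fkbp4 and Hspd1) and 8 were not called. There 30.1% of 16550 genes were called higher and 29.9% lower, and the medians were 0.37 and -0.04. With unscaled library totals, a setting added after seeing the data, 14 of these 35 were called higher and 6 lower, where 17.4% of genes were called higher and 48.7% lower. The most frequent combination, in 11 members, was lower in lung, lower in the monocyte libraries and higher in the CD4 T cell libraries. Another 8 were lower in lung, not called in the monocyte libraries and higher in the CD4 T cell libraries, and 2, Fkbp4 and Hspd1, were lower in all 3. The share of all genes with each combination was not counted, so these combinations cannot be read as particular to the members.

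**Figure D1:**
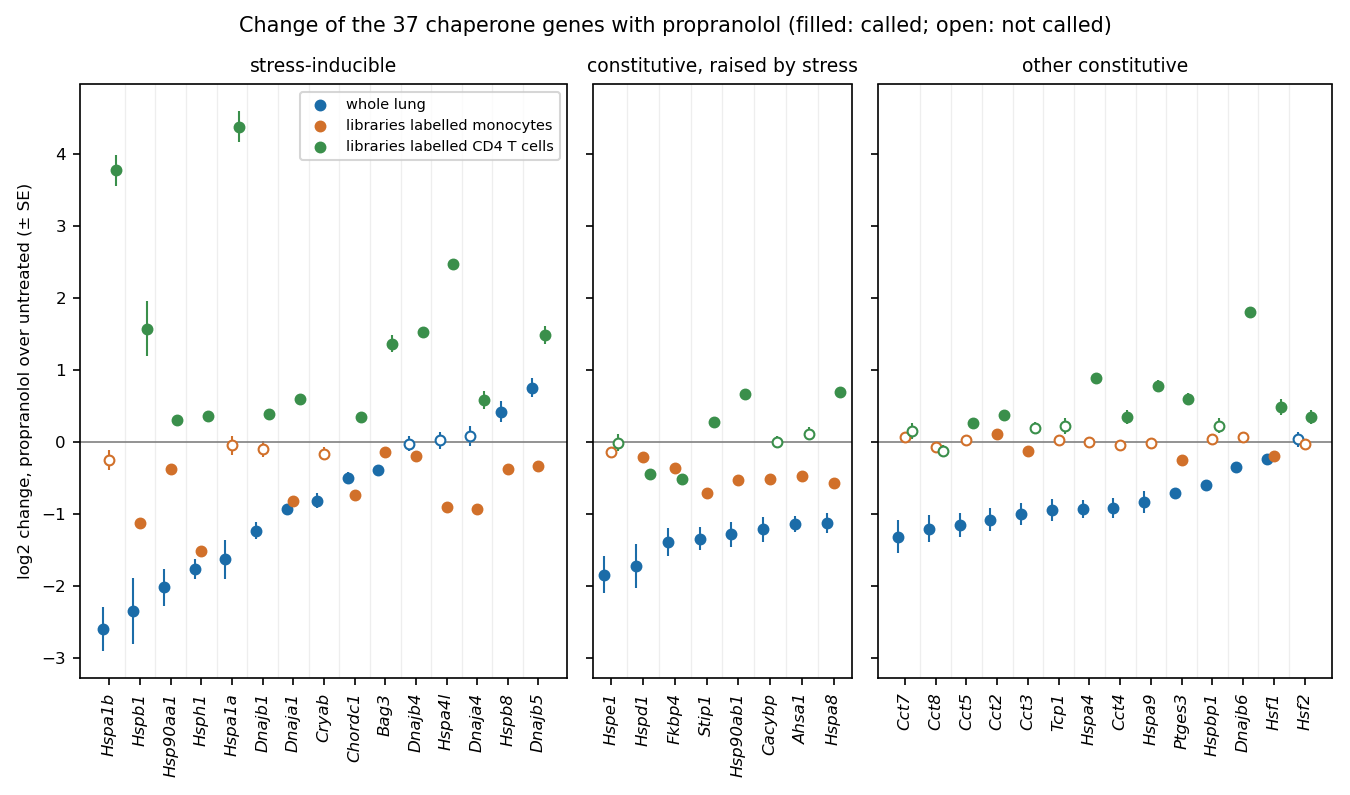
Log2 change with propranolol over untreated for each of the 37 members (vertical axis, with SE), in whole lung, monocyte and CD4 T cell libraries, in panels by group. Filled points are called and open points are not. The blue lung points lie at or below 0 in most members, and Hspa1a and Hspa1b stand highest among the green CD4 T cell points at 4.37 and 3.77. With unscaled library totals 15 of the green values above 0, of which 9 were called, turn below 0.

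The groups of genes differed in their medians. As a measure for the counts, 35.3% of all genes tested in lung were called lower and 35.5% higher. These shares were 16.1% and 14.3% in the monocyte libraries, and 29.9% and 30.1% in the CD4 T cell libraries. In lung, 10 of 15 stress-inducible members fell and 2 rose (median log2 change -0.81), all 8 constitutive members raised by stress fell (median -1.31), and 13 of 14 other constitutive members fell (median -0.92). In the monocyte libraries 11 of 15 stress-inducible members fell (median -0.37) and 7 of 8 members raised by stress fell (median -0.50). There only 3 of 14 other constitutive members fell, Ptges3, Hsf1 and Cct3, near the share of all genes, and the median was -0.01. In the CD4 T cell libraries all 13 stress-inducible members tested rose (median 1.36). Among the 8 members raised by stress 3 rose and 2 fell, near the shares of all genes (median 0.06). Among the 14 other constitutive members 9 rose (median 0.35). Scaling bears on the last material: with unscaled library totals, where the median of all genes moved to -0.42, the 3 medians became 0.98, -0.33 and -0.04.

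Whole lung: Hsp70 and Hsp110. Hspa1b, the classic stress-inducible Hsp70, had the lowest log2 change of any member in lung. It stood at 4.42, 4.88, 8.16, 10.1 and 5.38 scaled CPM in propranolol lungs, against 52.8, 61.0, 29.3, 25.7 and 31.3 in untreated lungs. Its copy Hspa1a stood at 2.15, 2.31, 4.36, 4.57 and 2.38 scaled CPM in propranolol lungs, against 7.66, 14.3, 11.2, 7.63 and 8.48 in untreated lungs. Neither gene's groups overlapped, and the log2 changes were -2.59 ± 0.31 (SE, n = 5 and 5) for Hspa1b and -1.63 ± 0.27 for Hspa1a. Hsph1, the inducible Hsp110 that recharges Hsp70, stood at 55.9, 45.1, 58.7, 52.5 and 67.9 scaled CPM in propranolol lungs, against 243, 210, 149, 170 and 180 in untreated lungs. Every propranolol library lay below every untreated one, with a log2 change of -1.77 ± 0.14. Hspa8, the constitutive cytosolic Hsp70, stood at 566, 446, 448, 431 and 643 scaled CPM in propranolol lungs, against 1227, 898, 1012, 1221 and 1175 in untreated lungs. The groups did not overlap and the log2 change was -1.13 ± 0.14. Hspa4, a constitutive Hsp110, and Hspa9, the mitochondrial Hsp70, fell by 0.94 and 0.84 on the log2 scale. Hspa4l, an Hsp110 abundant in testis, was not called at 0.02 ± 0.12.

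Whole lung: Hsp90 and its cochaperones. Hsp90aa1, the inducible cytosolic Hsp90, stood at 420, 302, 300, 243 and 547 scaled CPM in propranolol lungs, against 1995, 1915, 1036, 1150 and 1249 in untreated lungs. Hsp90ab1, the constitutive Hsp90, stood at 1403, 1093, 1044, 997 and 1659 scaled CPM in propranolol lungs, against 3659, 3391, 2426, 2735 and 2877 in untreated lungs. Both fell without overlap, with log2 changes of -2.02 ± 0.26 and -1.28 ± 0.17. All 8 cochaperones fell, from -1.39 for Fkbp4, an immunophilin of the steroid receptor complex, to -0.39 for Bag3, an Hsp70 exchange factor of selective autophagy. Stip1, which bridges Hsp70 and Hsp90, fell by 1.34, and Ahsa1, which speeds the ATPase of Hsp90, by 1.14. Cacybp, a calcyclin-binding protein, fell by 1.21, Ptges3, the Hsp90 cochaperone p23, by 0.71, Hspbp1, an Hsp70 exchange factor, by 0.60, and Chordc1, an Hsp90 cochaperone, by 0.50.

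Whole lung: small heat shock proteins and J proteins. Hspb1, a small heat shock protein that holds unfolded protein, stood at 33.2, 35.7, 41.2, 50.1 and 36.6 scaled CPM in propranolol lungs, against 317, 405, 124, 62.2 and 97.6 in untreated lungs. The groups did not overlap and the log2 change was -2.35 ± 0.46, but untreated libraries 1 and 2 stood far above the other untreated ones. Hspb8, the partner of Bag3, went the other way with 31.3, 34.8, 39.2, 39.7 and 27.3 scaled CPM in propranolol lungs, against 18.5, 31.3, 28.9, 25.7 and 24.3 in untreated lungs. These groups overlapped; the log2 change of 0.42 ± 0.15 was called, but not without untreated library 1 or 5 or propranolol library 3 or 4, and it was -0.31 under scaling on markers of resident lung cells. Among J proteins, Dnajb1, the main inducible partner of Hsp70, stood at 51.3, 45.1, 61.5, 62.3 and 55.8 scaled CPM in propranolol lungs, against 157, 143, 118, 109 and 124 in untreated lungs. Dnaja1, another cytosolic J protein, stood at 83.0, 75.9, 92.1, 86.9 and 91.3 scaled CPM in propranolol lungs, against 181, 161, 146, 161 and 169 in untreated lungs. Both fell without overlap, with log2 changes of -1.24 ± 0.12 and -0.93 ± 0.08. Dnajb5, a J protein that was higher, stood at 25.2, 29.2, 35.7, 38.1 and 26.4 scaled CPM in propranolol lungs, against 15.2, 18.5, 20.5, 18.7 and 18.9 in untreated lungs. It was the single member with every propranolol lung above every untreated lung (log2 change 0.75 ± 0.13), and its change was 0.03, not called, under resident-marker scaling. Of the 37 resident markers 33 were themselves called higher with propranolol (median log2 change 0.76). That scaling therefore moves log2 changes downward for genes in general, and the lost calls on Hspb8 and Dnajb5 cannot be read apart from this. Cryab, a small heat shock protein of lens and muscle, fell by 0.81. Dnajb6 fell by 0.35, and Dnaja4 and Dnajb4 were not called at 0.09 and -0.02.

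Whole lung: chaperonins and heat shock factors. Hspd1 and Hspe1, the mitochondrial chaperonin and its lid, fell by 1.72 and 1.84 on the log2 scale. All 7 TRiC subunits measured here fell, from -1.31 for Cct7 to -0.91 for Cct4. Hsf1, the main heat shock factor, stood at 55.2, 49.3, 49.9, 55.4 and 60.0 scaled CPM in propranolol lungs, against 72.5, 66.5, 56.6, 61.7 and 62.0 in untreated lungs. The groups overlapped, and the log2 change of -0.24 ± 0.08 was called, but not without untreated library 1 or propranolol library 2 or 3, nor with unscaled library totals. Hsf2 was not called at 0.04. Counting by group overlap, 30 members had every propranolol lung below every untreated lung, 1 had every one above and 6 overlapped. Of all genes tested in lung 28.9% had groups apart in the first way and 23.6% in the second, and 70.8% were called in either direction.

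Melanocyte transcripts moved with these members in lung. The 9 melanocyte markers summed to 1176 to 11312 CPM in propranolol lungs, against 16873 to 25555 CPM in untreated lungs, and all 9 fell. Propranolol libraries 4, 3, 2, 1 and 5, in this order, had rising melanocyte levels of 6.45, 7.36, 8.36, 9.39 and 9.62, as the mean log2(CPM + 1) of the markers. The 7 TRiC subunits summed to 826, 893, 1033, 1374 and 1513 scaled CPM in the same order, and Hspd1 with Hspe1 to 123, 150, 201, 294 and 370. The sum of Hsp90aa1 and Hsp90ab1 ran the same way, at 1240, 1344, 1395, 1823 and 2206. In these 5 propranolol lungs the 3 sums thus followed the melanocyte order. In untreated lungs, where the melanocyte level spanned only 10.2 to 10.7, the sums followed it in part. With libraries 3, 2, 5, 4 and 1 in rising melanocyte order, TRiC summed to 2006, 2680, 2362, 2310 and 2901 scaled CPM. In the same order Hspd1 with Hspe1 summed to 573, 919, 685, 656 and 997, and the Hsp90 pair to 3462, 5306, 4126, 3885 and 5654. The lowest and highest sums were thus in libraries 3 and 1, while those between ran the other way. Hspa1a with Hspa1b did not follow the melanocyte order in propranolol lungs, at 14.7, 12.5, 7.19, 6.56 and 7.77 scaled CPM, the highest values being in the 2 libraries with the least melanocyte RNA. The melanocyte level separates the treatment groups fully, at 6.45 to 9.62 in propranolol lungs and 10.2 to 10.7 in untreated lungs. With it as a covariate 27 of the 33 members called in lung were still called, and Hspa4l and Dnaja4 were newly called lower. In that fit 19.4% of all genes tested were called, a share of all genes and not of calls kept. Then the log2 change was -3.38 for Hspa1b, -2.57 for Hspa1a, -2.66 for Hspb1, -1.57 for Hsph1 and -1.39 for Dnajb1, but -0.64 for Hspd1 and -0.51 for Cct7, the last not called. The medians were -0.58, -0.76 and -0.45 for stress-inducible, stress-raised and other constitutive members, and Hspb8 and Dnajb5, at 0.01 and 0.28, were no longer called.

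**Figure D2:**
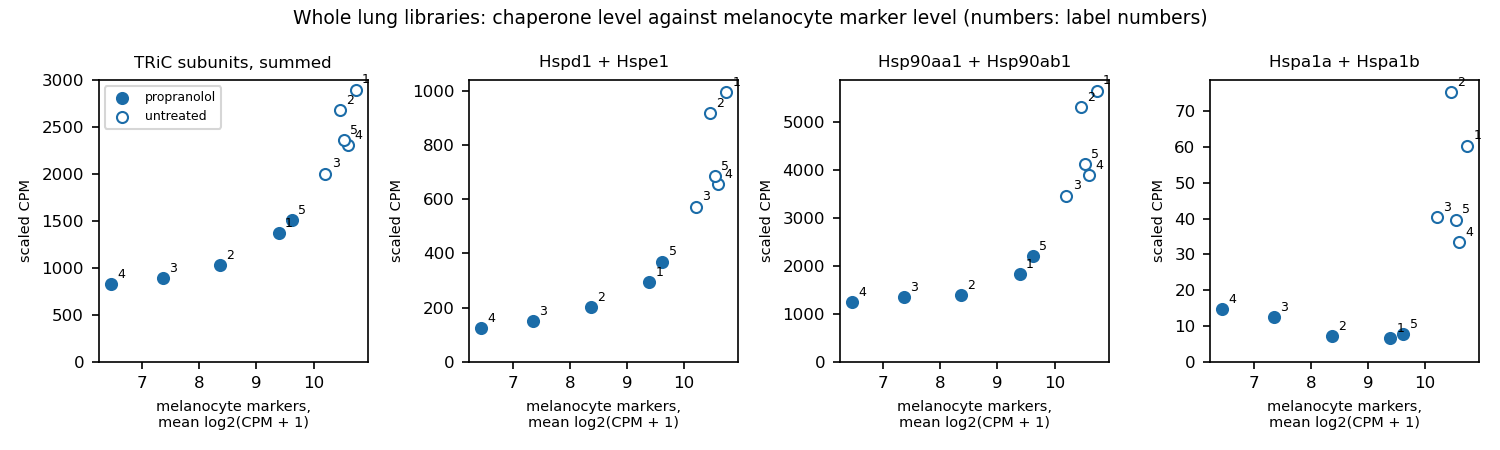
Summed scaled CPM (vertical axes, from 0) of 4 sets of members in the 10 whole lung libraries, against the mean log2(CPM + 1) of 9 melanocyte markers (horizontal axes). Filled points are propranolol and open points untreated libraries, with their label numbers. TRiC runs upward from 826 to 1513 over the propranolol libraries, while Hspa1a with Hspa1b is highest, at 14.7, in propranolol library 4, which has the lowest melanocyte level.

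Libraries labelled monocytes: members that fell. Hsph1 had the lowest log2 change. It stood at 77.1, 77.4, 77.5 and 78.0 scaled CPM with propranolol, against 214, 220, 223 and 229 without. The groups lay far apart, with a log2 change of -1.51 ± 0.04 (SE, n = 4 and 4). Hspb1 stood at 74.3, 75.3, 73.5 and 71.5 scaled CPM with propranolol, against 143, 156, 173 and 169 without. Dnaja4 stood at 13.5, 13.4, 12.1 and 12.7 scaled CPM with propranolol, against 24.0, 25.6, 26.3 and 22.6 without. Neither overlapped, and the log2 changes were -1.12 ± 0.06 and -0.93 ± 0.07. Dnaja1 stood at 122, 123, 114 and 111 scaled CPM with propranolol, against 202, 203, 217 and 213 without. The log2 change was -0.83 ± 0.05, close to that of Hspa4l at -0.90 and of Chordc1 at -0.73.

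The abundant members fell less. Hspa8 stood at 957, 929, 919 and 898 scaled CPM in propranolol monocyte libraries, against 1402, 1363, 1385 and 1361 in untreated ones. Hsp90ab1 stood at 1893, 1865, 1951 and 1923 scaled CPM with propranolol, against 2801, 2750, 2731 and 2754 without. Hsp90aa1 stood at 475, 472, 503 and 505 scaled CPM with propranolol, against 649, 623, 625 and 651 without. None of the 3 overlapped, and the log2 changes were -0.57 ± 0.04, -0.53 ± 0.03 and -0.38 ± 0.04. Hsf1 stood at 50.6, 54.1, 52.8 and 54.3 scaled CPM with propranolol, against 55.1, 60.1, 61.0 and 65.4 without, a log2 change of -0.19 ± 0.06 with the lowest untreated library just above the highest propranolol one. Among the cochaperones Stip1, Cacybp, Ahsa1, Fkbp4, Ptges3 and Bag3 fell by 0.71, 0.52, 0.47, 0.37, 0.26 and 0.14. Hspb8 and Dnajb5, the members that rose in lung, fell here by 0.37 and 0.34, Hspd1 by 0.21 and Dnajb4 by 0.20.

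The classic inducible pair did not follow them. Hspa1a stood at 137, 138, 106 and 107 scaled CPM in propranolol monocyte libraries, against 103, 111, 141 and 149 in untreated ones. Hspa1b stood at 252, 237, 191 and 184 scaled CPM with propranolol, against 200, 233, 293 and 299 without. Dnajb1 stood at 166, 157, 119 and 113 scaled CPM with propranolol, against 137, 140, 158 and 158 without. In all 3 genes libraries 1 and 2 were high and 3 and 4 low with propranolol, and the order was turned round without it. The groups overlapped, and the log2 changes of -0.05 ± 0.13, -0.25 ± 0.14 and -0.10 ± 0.12 were not called. Over all well-counted genes, too, libraries 1 and 2, and libraries 3 and 4, lay closest to each other in both groups: the chi-square per degree of freedom was 3.71 and 3.52 within these pairs and 23.4 to 35.5 between them with propranolol, and 5.20 and 4.45 within and 12.1 to 29.3 between them without. The labels do not say what the close libraries share. When each close pair was summed to 1 library, a setting added after seeing the data, 12 members were called lower and none higher, where 4.69% of genes were called lower and 1.98% higher. Hsph1, among the 12, was at -1.53, with an SE of 0.07 in place of 0.04. For Hsp90ab1 the SE was 0.09 in place of 0.03. The calls on Hspb8, Dnajb5, Dnajb4, Bag3, Hspd1, Fkbp4, Ptges3, Hsf1, Cct2 and Cct3 were lost, so no member of the other constitutive group was still called.

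The constitutive folding machinery was mostly not called in the monocyte libraries. Cct2, a TRiC subunit, stood at 247, 260, 248 and 253 scaled CPM with propranolol, against 233, 231, 236 and 231 without. It was the single member called higher, by a log2 change of 0.11 ± 0.03, and it lost the call without untreated library 1, 2 or 4 or propranolol library 2. Dnajb6 stood at 48.8, 44.7, 42.5 and 44.3 scaled CPM with propranolol, against 44.3, 44.1, 41.1 and 41.7 without, overlapping and not called at 0.08 ± 0.05. Of the TRiC subunits Cct3 was called lower at -0.13 and 5 were not called, from -0.07 for Cct8 to 0.06 for Cct7. In all, 20 members had every propranolol library below every untreated one, 1 every one above, and 16 overlapped. Of all genes tested there 16.8% had groups apart in the first way and 14.9% in the second, and 30.5% were called in either direction. Calls on 16 of the 22 members held with each library left out in turn, and those on Bag3, Cct2, Cct3, Dnajb4, Hsf1 and Hspd1 did not. With unscaled library totals the calls on Dnajb4, Bag3, Hsf1 and Cct3 were lost. Each of the 8 libraries ended at least 1 of these calls when left out, and without untreated library 1 Hspa1b and Hspe1 were called lower. The melanocyte sum was higher with propranolol here, the endothelial sum lower, and the part of these other cells in the changes was not tested.

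Libraries labelled CD4 T cells: the inducible genes. Hspa1a and Hspa1b, near the floor without treatment, had the largest changes. Hspa1a stood at 10.1, 9.94, 11.8 and 10.6 scaled CPM with propranolol, against 0.595, 0.532, 0.320 and 0.623 without. Hspa1b stood at 35.4, 18.5, 27.1 and 25.2 scaled CPM with propranolol, against 1.39, 2.24, 2.17 and 1.84 without. The groups were far apart, with fitted changes of 20.7-fold for Hspa1a (log2 change 4.37 ± 0.22, SE, n = 4 and 4) and 13.7-fold for Hspa1b (3.77 ± 0.22). The Hspa1a values rest on 239 to 374 counts a library with propranolol and 12 to 23 without. Hspa4l rose 5.56-fold to 289 to 345 scaled CPM with propranolol, against 57.1 to 58.9 without. Dnajb4 rose 2.88-fold, Dnajb5 2.80-fold and Bag3 2.57-fold. Hspb1 rose 2.98-fold from a very low level, resting on 26 to 56 counts a library with propranolol and 8 to 21 without. Hspb8, with 0 to 7 counts, and Cryab, with 4 to 24 counts with propranolol and 0 to 4 without, were too low to be tested.

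Other inducible members moved by much less in the CD4 T cell libraries. Hsph1, which had fallen most in the monocyte libraries, stood at 174, 143, 172 and 162 scaled CPM with propranolol, against 119, 129, 131 and 128 without. Hsp90aa1 stood at 443, 544, 520 and 512 scaled CPM with propranolol, against 401, 408, 418 and 403 without. Dnajb1 stood at 129, 147, 142 and 136 scaled CPM with propranolol, against 113, 99.7, 99.9 and 112 without. None of the 3 overlapped and all 3 were called higher, at log2 changes of 0.36 ± 0.07, 0.31 ± 0.07 and 0.38 ± 0.07, but with unscaled library totals they were -0.03, -0.08 and -0.0025 and not called. Dnaja1 stood at 226, 194, 220 and 212 scaled CPM with propranolol, against 137, 145, 145 and 139 without. Its log2 change of 0.59 ± 0.06 was 0.21 and still called with library totals. TMM factors averaged 0.874 in propranolol CD4 T cell libraries and 1.144 in untreated ones, and that gap is what sets the 2 scalings apart.

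The constitutive members went both ways in the CD4 T cell libraries. Hspa8 stood at 1334, 1458, 1418 and 1399 scaled CPM with propranolol, against 849, 885, 877 and 869 without. Hsp90ab1 stood at 2974, 3074, 2913 and 2927 scaled CPM with propranolol, against 1890, 1883, 1863 and 1891 without. Both rose without overlap, by 0.69 ± 0.05 and 0.66 ± 0.05 on the log2 scale, and by 0.30 and 0.27 with library totals. Dnajb6, a J protein that keeps aggregation-prone proteins apart, rose 3.50-fold to 121 to 144 scaled CPM with propranolol, against 37.1 to 40.6 without. Hspa4 and Hspa9 rose by 0.88 and 0.78, and Ptges3 by 0.60. Cacybp, Ahsa1, Hspe1 and Hspbp1 were not called, at 0.01, 0.11, -0.01 and 0.23; with library totals the first 3 were called lower, at -0.38, -0.27 and -0.40.

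A few members of the CD4 T cell libraries fell. Fkbp4 stood at 131, 166, 142 and 157 scaled CPM with propranolol, against 225, 211, 211 and 205 without. Hspd1 stood at 178, 226, 210 and 204 scaled CPM with propranolol, against 280, 282, 288 and 264 without. Both fell without overlap, at -0.52 ± 0.08 and -0.44 ± 0.07. Cct8 stood at 199, 265, 247 and 247 scaled CPM with propranolol, against 258, 257, 274 and 253 without, overlapping and not called at -0.12 ± 0.08, though called lower with library totals at -0.51. Cct7 at 0.15, Cct3 at 0.19 and Tcp1 at 0.22 were not called either. Of the propranolol libraries Cct8 was lowest in library 1 and highest in library 2, the pair of libraries that were least alike in this group (chi-square per degree of freedom 136).

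Hsf1 was called higher in the CD4 T cell libraries. It stood at 109, 72.7, 86.7 and 83.2 scaled CPM with propranolol, against 58.5, 66.1, 63.3 and 63.2 without. The log2 change was 0.49 ± 0.11, and 0.10, not called, with library totals; Hsf2 was at 0.35 and -0.04 on the 2 scalings. Of the TRiC subunits Cct2, Cct4 and Cct5 were called higher, at 0.37, 0.35 and 0.26, and these became -0.02, -0.04 and -0.13 with library totals, as Chordc1 and Stip1 became -0.04 and -0.10. By overlap, 26 members had every propranolol library above every untreated one, 2 every one below, and 9 overlapped. These counts are over all 37 members, so the 26 include Cryab and the 9 include Hspb8, which were too low to be tested. Of all genes tested there 27.9% had groups apart in the first way and 28.5% in the second, and 60.0% were called in either direction. All 27 calls held with each library left out in turn.

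**Figure D3:**
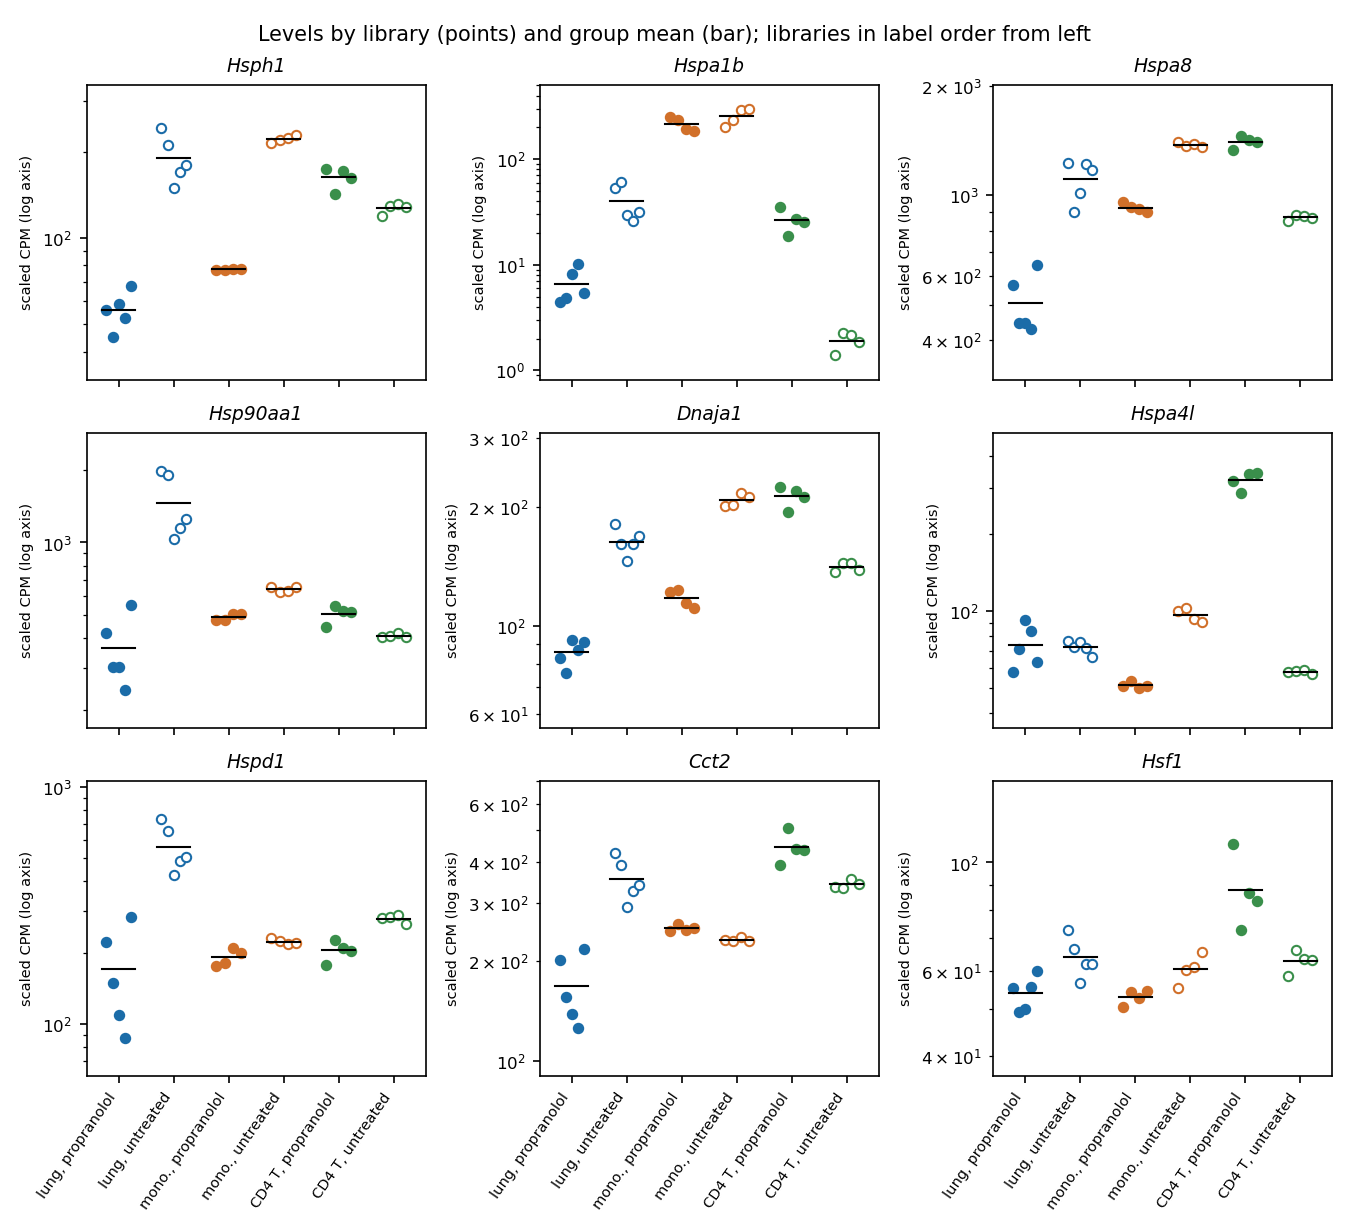
Scaled CPM (log axes) of 9 members in every library, propranolol (filled) left of untreated (open) within whole lung, monocyte and CD4 T cell libraries; bars are group means. Hspa1b lies at 18.5 to 35.4 in propranolol CD4 T cell libraries and 1.39 to 2.24 in untreated ones, and the monocyte libraries show its crossed order. The small CD4 T cell differences of Hsph1, Hsp90aa1 and Cct2 lie below 0 on the log2 scale with unscaled library totals, at -0.03, -0.08 and -0.02.

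Early-response genes stood apart with the inducible chaperones in the CD4 T cell libraries. The 19 immediate early genes of the list summed to 9501 to 10729 CPM with propranolol, against 1722 to 1759 CPM without, and all 19 rose (median log2 change 2.72, highest 6.78 for Atf3). Of all genes tested in these libraries 30.1% were called higher and 29.9% lower. In the monocyte libraries the list summed to 11379 to 12350 CPM with propranolol and 11798 to 12665 CPM without, and in lung to 1856 to 2305 CPM and 1421 to 1859 CPM. Only the CD4 T cell groups were wide apart on this sum. The 5 B cell markers summed to 341 to 455 CPM in propranolol CD4 T cell libraries, against 135 to 177 CPM in untreated ones, and the 6 monocyte markers to 836 to 946 CPM, against 367 to 465 CPM. The part of these genes and cells in the chaperone changes was not tested.

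Chaperones outside the 37 are counted here beside the shares of all genes. In lung 35.3% of all genes tested were called lower and 35.5% higher. The shares were 16.1% and 14.3% in the monocyte libraries, and 29.9% and 30.1% in the CD4 T cell libraries. Of 44 other cytosolic and mitochondrial chaperone genes, 31 fell and 4 rose in lung (median log2 change -0.56), the lowest being St13 at -1.18 and the highest Hspa12a at 1.02. In the monocyte libraries 11 fell and 4 rose (median -0.01), and in the CD4 T cell libraries 20 of 42 tested rose and 9 fell (median 0.21). Of 15 chaperones of the endoplasmic reticulum, which answer to a separate stress pathway, 14 fell in lung (median -0.92), 15 fell in the monocyte libraries (median -0.46), and 10 rose and 2 fell in the CD4 T cell libraries (median 0.32). Serpinh1, the collagen chaperone, was the lowest in lung at -1.68 and in the monocyte libraries at -0.88, and Dnajb9 the highest in the CD4 T cell libraries at 1.80. Serpinh1 sits beside falls of 3 of 3 fibroblast genes in the monocyte libraries and of 2 of 3 in lung, and a role of those cells was not tested.

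The difference between materials in the treatment change was fitted with 4 groups at a time. Both fits share the lung libraries, and in them the median difference over all genes was -0.17 for the monocyte libraries and -0.26 for the CD4 T cell libraries. Against lung, the change was more positive in the monocyte libraries for 25 members and more negative for 5, Dnajb5, Dnaja4, Hspa4l, Hspb8 and Chordc1, where 25.2% of 20328 genes were called higher and 32.3% lower (57.4% in all). The median difference over the members was 0.58 there. In the CD4 T cell libraries the change was more positive than in lung for 34 members, where 24.0% of 20832 genes were called higher and 32.2% lower (56.2% in all). Hspb8 and Cryab, too low to be tested within the CD4 T cell libraries, passed the filter of this fit through their lung counts. Their CD4 T cell counts were at most 7 and 24 a library, so their differences say little of that material. All 37 fitted differences, those of Hspb8 and Cryab included, were above 0, from 0.14 for Hsf2 to 6.18 for Hspa1b. None was therefore lower in the edgeR fit at any threshold, though for Hspb8 and Cryab this rests mainly on the lung libraries. With unscaled library totals Hsf2 and Dnaja4 turned to -0.26 and -0.07, neither called, and 28 members were called higher, where 14.6% of genes were; Hspd1, Fkbp4, Dnajb5, Hsf1, Hspbp1 and Cct8 lost the call. The list was selected on these changes, so the differences are a description. For Hsph1 the change in the monocyte libraries differed from that in lung by 0.14 ± 0.16, which was not called, while the change in the CD4 T cell libraries differed from it by 1.95. The call on Chordc1 in the first fit and that on Dnajb5 in the second were lost when any of 9 single libraries was left out.

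The untreated libraries show where each member is expressed. On a scale per length, plain CPM per kilobase of exon, Hsp90ab1 was the most abundant of the 37 in each material, at 891 to 923 in untreated monocyte libraries, 782 to 1105 in untreated lung and 708 to 721 in untreated CD4 T cell libraries. Exon lengths come from an annotation on GRCm38 and are approximate for counts made on GRCm39. In untreated lung the order went on with Hsp90aa1 at 255 to 460, Hspa8 at 193 to 269, Fkbp4 at 183 to 248 and Hspd1 at 155 to 253, and all neighbours among these 4 overlapped. In untreated monocyte libraries Hspa8, at 308 to 320, came second, above Hsp90aa1 at 154 to 166, and in untreated CD4 T cell libraries Hspa8, at 226 to 235, stood above Cct2 at 149 to 158. Hsf2 had the lowest level in lung and monocyte libraries, at 1.43 to 1.75 in untreated lung. In untreated CD4 T cell libraries 5 members were lower than Hsf2: Hspa1b at 0.567 to 0.915, Hspb1 at 0.409 to 0.653, Hspa1a at 0.123 to 0.239, Cryab at 0 to 0.0760 and Hspb8 at 0 to 0.0582. The ranges of Hspa1b and Hspb1 overlapped, as did those of the last 2.

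**Figure D4:**
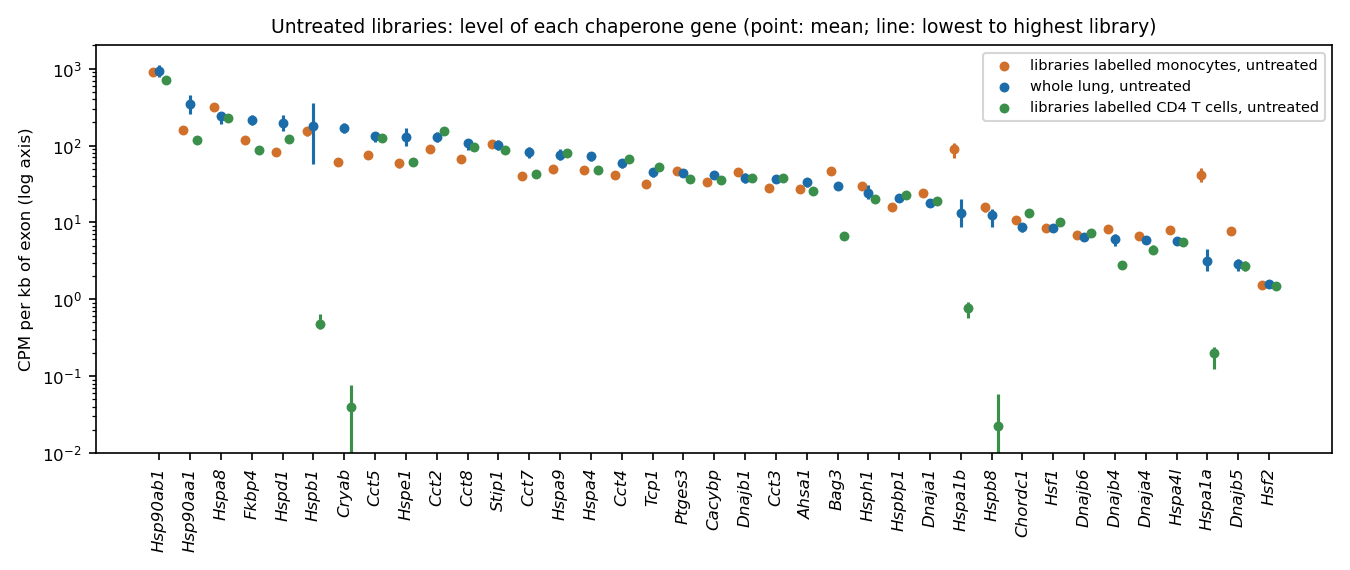
Plain CPM per kilobase of exon (log axis) of the 37 members in untreated monocyte, whole lung and CD4 T cell libraries, in the order of the lung means. Points are means and lines run from the lowest to the highest library; libraries at 0 are drawn at the lower edge. Hspa1a and Hspa1b reach 33.3 to 50.5 and 68.5 to 107 in the monocyte libraries, above lung and CD4 T cell libraries, and Hspb1, Cryab and Hspb8 are below 1 in CD4 T cell libraries.

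Untreated monocyte libraries and untreated lung stand in 1 table and can be set against each other. Levels by material were part of how the members were chosen, so this contrast, too, is a description without p-values. The edgeR quasi-likelihood test called 15 members higher and 15 lower in the monocyte libraries, where 31.9% of 18259 genes were called higher and 33.6% lower. Hspa1a, at 33.3 to 50.5 CPM per kilobase in untreated monocyte libraries and 2.34 to 4.44 in untreated lung, was 15.1-fold higher (log2 difference 3.92 ± 0.21). Hspa1b, at 68.5 to 107 and 8.69 to 20.1 CPM per kilobase in the same groups, was 7.59-fold higher (2.92 ± 0.26). Dnajb5 was 3.01-fold higher, at 7.50 to 8.17 and 2.32 to 3.34 CPM per kilobase (1.59 ± 0.09). In all 3, each of the 4 monocyte libraries lay above each of the 5 lungs.

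Some roles lay on 1 side and others on both, beside 31.9% of all genes called higher and 33.6% lower. Of the stress-inducible members 12 of 15 were higher in the untreated monocyte libraries and 2 lower (median log2 difference 0.52), of the members raised by stress 1 of 8 was higher and 3 lower (median -0.12), and of the other constitutive members 2 of 14 were higher and 10 lower (median -0.33). Of the Hsp70 and Hsp110 genes 5 of 7 were higher and 2 lower, and of the cochaperones 3 of 8 were higher and 2 lower. All 6 J proteins were higher, from 0.28 for Dnajb6 to 1.59 for Dnajb5, and all 7 TRiC subunits were lower, from -0.85 for Cct7 to -0.22 for Cct3. The call on Cct3 was lost without untreated monocyte library 1, 3 or 4, and those on Dnaja4, Dnajb6 and the cochaperone Ptges3 with unscaled library totals. The mitochondrial pair Hspd1 and Hspe1 was lower at -1.09 ± 0.14 and -0.98 ± 0.17. Hsp90aa1 was lower, at 154 to 166 CPM per kilobase in untreated monocyte libraries and 255 to 460 in untreated lung (-0.96 ± 0.19), and Cryab had the lowest difference at -1.28 ± 0.09. Hsp90ab1, Hsf1, Hsf2 and Hspb1 were not called, at 0.12, 0.16, 0.11 and -0.08, and the interval of Hspb1 is wide (SE 0.46). All 19 immediate early genes were higher in the untreated monocyte libraries (median 2.71), at a sum of 11798 to 12665 CPM against 1421 to 1859 CPM in untreated lung. All 9 melanocyte markers were lower, at 4570 to 5503 and 16873 to 25555 CPM. How far isolation of the cells or their makeup takes part in the split cannot be told apart in this design.

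In the CD4 T cell libraries propranolol brought Hspa1a to 2.90 to 3.49 CPM per kilobase, against 0.123 to 0.239 in untreated ones, and Hspa1b to 5.74 to 11.1, against 0.567 to 0.915. These propranolol levels lie beside the 2.34 to 4.44 and 8.69 to 20.1 of untreated lung and far below the 33.3 to 50.5 and 68.5 to 107 of the untreated monocyte libraries. The CD4 T cell libraries stand in another table, so these levels were not tested against each other. Hspa4l reached 21.2 to 25.7 CPM per kilobase in propranolol CD4 T cell libraries, against 5.52 to 5.69 in untreated ones. That was above its range in untreated lung, 5.31 to 6.23, and in untreated monocyte libraries, 7.73 to 8.44.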

How the data were processed

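PolyA RNA was sequenced on a NovaSeq 6000, per the labels' protocols. The submitters' processing notes name STAR 2.7.9, featureCounts, Subread 2.0.3 and the build GRCm39, with no strand setting. The deposited values are raw counts per gene in 2 tables, whole lung with monocyte libraries in 1 and CD4 T cell libraries in the other. All 26 columns were matched to samples by name, and 94% of gene IDs had a symbol.

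Each comparison used edgeR 4.0.16 in R 4.3.3: TMM scaling, filterByExpr with a minimum count of 10, glmQLFit and glmQLFTest on the 2 groups concerned (4 for differences between materials), and Benjamini-Hochberg adjustment over all genes tested at 0.05. The SE of a log2 change was its absolute value divided by the square root of the F statistic of that test, with libraries taken as independent. The members and gene lists were chosen with earlier results of these data known. Every member is accounted for, with values by library for the 3 lowest and 2 highest log2 changes among members averaging at least 1 CPM in a material and for Hsph1, Hspa1a, Hspa1b, Hspa8, Hsp90aa1, Hsp90ab1, Dnaja1, Dnajb1 and Hsf1 in each. Alternatives were DESeq2 1.42.0, limma-voom (limma 3.58.1), other scalings, filters, covariates and left-out libraries. Exon lengths and shared 50-base words came from GENCODE M21. Scripts were tested on simulated data. In no material did every same-numbered pair deviate together, so numbers were not used as pairs. No replicate pair was alike within sampling noise.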

Additional observations from a re-analysis of the deposited data

Results flagged for a closer look

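Of 219 combinations of a member and a group, 5 had a single library standing apart by Dixon's test at 95%, fewer than the 1 in 20 that chance gives. They were Hspa9 at 230 scaled CPM in untreated monocyte library 1 (others 214 to 216), Hspb1 at 0.588 in untreated CD4 T cell library 2 (others 0.370 to 0.397), Dnajb6 at 121 in propranolol CD4 T cell library 2 (others 141 to 144), Cct4 at 177 in propranolol monocyte library 1 (others 172 to 173) and Cct5 at 204 in untreated monocyte library 3 (others 211 to 212).

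Differences between materials in the treatment change, from edgeR fits of the interaction, were called for most members, where 57.4% of all genes were called for the monocyte libraries and 56.2% for the CD4 T cell libraries. The list was selected on these changes, so the values are a description. In the fit of CD4 T cell libraries with lung, Hspb8 and Cryab passed the filter through their lung counts. Both were too low to be tested in the CD4 T cell libraries alone. Monocyte libraries minus whole lung gave log2 differences of 1.44 for Hspa1a, 2.22 for Hspa1b, 0.44 for Hspa8, 1.53 for Hsp90aa1, 0.64 for Hsp90ab1 and 1.02 for Dnajb1, with 25 members called higher and 5 lower. CD4 T cell libraries minus whole lung gave 1.95 for Hsph1, 5.82 for Hspa1a, 6.18 for Hspa1b, 1.65 for Hspa8, 2.16 for Hsp90aa1, 1.77 for Hsp90ab1, 1.35 for Dnaja1, 1.44 for Dnajb1 and 0.56 for Hsf1, with 34 members called higher and 0 lower; the lowest fitted difference was 0.14.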

How the results depend on the processing

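Direction and calls of the members held under DESeq2's size factors, DESeq2's test and limma-voom in lung, monocyte and CD4 T cell libraries. In lung, members called higher numbered 1 without the filter, 0 under resident-marker scaling and 0 with the melanocyte covariate. Resident-marker scaling gave 2010 genes higher and 10573 lower, a member median of -1.67 (all genes -0.68) and -0.31 for Hspb8; the covariate gave 1579 and 2040 genes and a median of -0.52. In the monocyte libraries, members called higher were 0 without the filter, with the replicate number as a block, in 1 fit with lung and with close libraries summed. The replicate block called 1454 genes higher, not 2614, and dropped the calls on Hspd1, Dnajb4, Bag3, Cct2 and Cct3; same-numbered libraries correlated between -0.43 and -0.21 there and between -0.08 and 0.49 in lung, and the block dropped no member's call in lung or CD4 T cell libraries. The 1 fit with lung gave 819 genes higher, 1250 lower and 11 members lower; summed libraries (added later) gave 409, 968 and 12. In the CD4 T cell libraries a mean of at least 5 CPM gave a member median of 0.28. Library totals (added later) gave 2886 genes higher and 8064 lower, 14 members higher and 6 lower and a median of -0.0166 (all genes -0.42), with Hsph1 at -0.0288, Hsp90aa1 -0.0790, Dnajb1 -0.0025, Chordc1 -0.0352, Stip1 -0.10, Hsf2 -0.0385, Cct2 -0.0166, Cct4 -0.0406 and Cct5 -0.13. Left-out libraries gave 1 to 2 members higher in lung, 0 to 1 in the monocyte libraries, and a median difference of 0.53 to 0.85 between monocyte libraries and lung; the one between CD4 T cell libraries and lung was 1.59 without the filter and 0.95 with library totals (3034 genes higher). The causes were not tested. Low counts limit Hspb1, Hspb8 and Cryab in CD4 T cell libraries.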
